A study of Xenopus laevis with 8 samples.

Results

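The DUSP, Sprouty and SPRED genes studied here were dusp1, dusp2, dusp4, dusp5, dusp6, dusp7, spry1, spry2, spry4 and spred1. Rows of the count table were taken as members when their symbol, without a final L or S, was one of these 10 names. Of the 10 symbols 9 had a row, each as an L and an S homeologue, which gave 18 rows of 41881 in the table. No row carried the symbol dusp2, which was not analysed here. All 18 rows had enough counts to be tested, among 25171 tested rows in all. The L and S copies come from the 2 parental genomes of the allotetraploid frog Xenopus laevis and were counted apart.

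Brains of stage NF 47 tadpoles were sequenced as 4 CRISPant pools (numbered 3, 4, 7 and 9) and 4 control pools (1, 2, 4 and 5), with 4 whole brains in each pool. CRISPants were raised from fertilised eggs injected with Cas9 and a guide RNA against both homeologues of neurod2, while their control siblings received Cas9 alone and are labelled wild type. The CRISPants were F0 mosaics, so edited and unedited cells were mixed in each brain, and every animal was from 1 sibship, which limits the spread behind each p-value to that between pools of siblings. Total counts ranged from 18945762 to 25937707 per pool, and neurod2.L, a check of the target, was at 36.4 ± 2.42 CPM in control and 26.2 ± 5.22 CPM in CRISPant brains (SD, n = 4), and fell (log2 fold change -0.47, edgeR adjusted p = 0.0075), while neurod2.S, at 46.5 and 36.6 CPM, did not pass (edgeR adjusted p = 0.11). The guide cuts the gene and need not lower its RNA.

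When a growth factor binds its receptor tyrosine kinase, Ras, Raf, MEK and ERK are switched on in turn, and ERK then activates transcription of its own inhibitors. In mammals the dual-specificity phosphatases encoded by dusp1, dusp4 and dusp5 remove phosphate from MAP kinases in the nucleus, and those of dusp6 and dusp7 do so in the cytoplasm. Sprouty proteins restrain the steps from receptor to Raf, and Spred1 brings neurofibromin, which turns Ras off, to the membrane. Levels below are in CPM, read counts scaled to library size after TMM, a correction for library composition. They are not divided by transcript length, so levels of different genes or copies are not compared as amounts of RNA. Read shares, L to S ratios and marker sums below are compared only between pools.

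Both homeologues of dusp5, which in mammals encodes a nuclear phosphatase selective for ERK, fell by more than 2-fold in CRISPant brains, and no other member did. Among the remaining rows, spry4.L, dusp7.L and spred1.S fell by less, and dusp4.L, dusp1.L and spred1.L rose by at most 1.25-fold. In all, 5 of the 18 rows fell and 3 rose, which leaves 10 that did not pass. A gene passed when its Benjamini-Hochberg adjusted p in edgeR's quasi-likelihood test was under 0.05.

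The share of member rows that passed, 44.4%, was close to the 42.4% of all genes tested that did. Across all genes 21.7% were higher and 20.8% lower, against 16.7% and 27.8% of the members. A fall of more than 2-fold was seen in 1.58% of all genes and in 2 of the 18 rows, both of them dusp5. The median log2 fold change of the members was -0.14, with 0.00 over all genes, and their median absolute log2 fold change was 0.24, with 0.23 over all genes. CRISPant and control pools did not overlap in 6 member rows, with CRISPants below in 5 and above in 1, and did not overlap in 37.8% of all genes. The members were picked with earlier results of these data known, so these counts describe them and do not test them as a set.

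**Figure D1:**
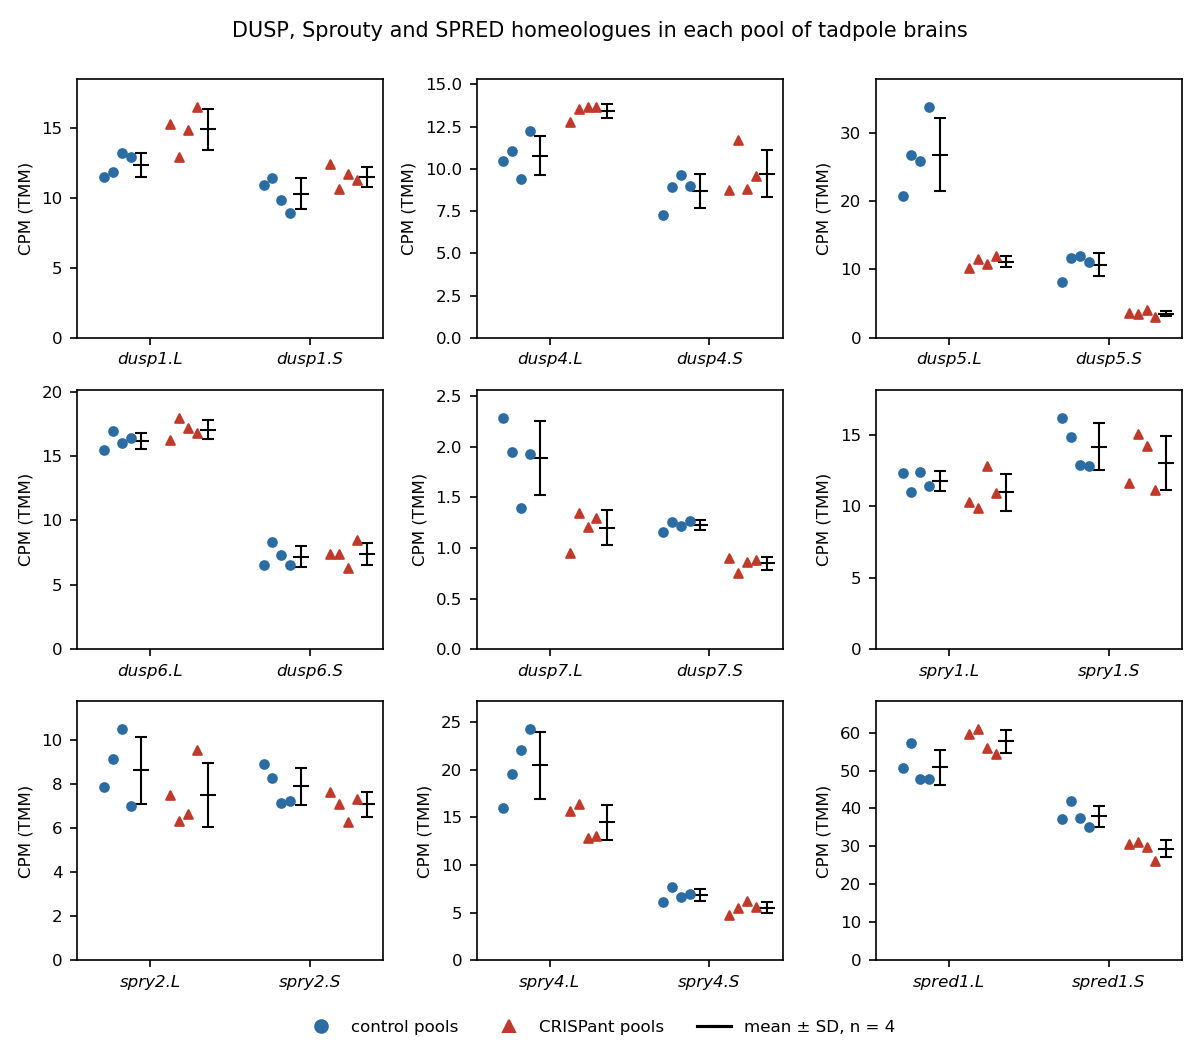
CPM of each L and S homeologue in every pool, with control pools as circles, CRISPant pools as triangles, and the mean and SD of 4 pools as bars. The dusp5.L controls lie between 20.7 and 33.8 CPM, above all CRISPant pools at 10.2 to 12.0 CPM, while the dusp6.L groups overlap.

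dusp5.L lies on chromosome 7L (v10.1 assembly, 1759052 to 1765698). It was at 20.7, 26.8, 25.9 and 33.8 CPM in control pools 1, 2, 4 and 5, and at 10.2, 11.6, 10.9 and 12.0 CPM in CRISPant pools 3, 4, 7 and 9. The groups did not overlap, with CRISPants below and control pool 1 the lowest and control pool 5 the highest of the controls. The mean fell from 26.8 ± 5.40 to 11.2 ± 0.793 CPM (SD, n = 4), a fitted reduction of 58.2% (log2 fold change -1.26, SE 0.12, edgeR adjusted p = 6.9e-07). The controls spread more widely than the CRISPants, with a coefficient of variation of 20.1% against 7.10%.

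dusp5.S lies on chromosome 7S from 1303507 to 1310571. Its fitted fall was larger than that of dusp5.L, but the difference between the copies did not pass in the ratio test below. Control pools were at 8.21, 11.7, 12.0 and 11.0 CPM and CRISPant pools at 3.65, 3.47, 4.00 and 3.10 CPM, again with no overlap and control pool 1 the lowest control. The mean went from 10.7 ± 1.72 to 3.56 ± 0.376 CPM (SD, n = 4), a reduction of 66.7% (log2 fold change -1.59, SE 0.14, edgeR adjusted p = 1.6e-08). This was the smallest p of any member, and it ranked 72 by p and 90 by fold among the 5223 genes that fell. In bulk RNA from whole brains, fewer cells that express a gene and less RNA per cell cannot be told apart.

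With the counts of both homeologues added, dusp5 fell from 37.5 ± 6.49 to 14.7 ± 0.612 CPM (SD, n = 4), a log2 fold change of -1.35 (95% interval -1.57 to -1.12, edgeR adjusted p = 1.0e-07). Leaving out any pool in turn kept this value between -1.46 and -1.25. dusp5 took 30.6% to 39.3% of the reads of the dusp member rows in control pools and 15.6% to 16.6% in CRISPant pools. Exact binomial 95% intervals of these shares, which cover counting error only, reached from 28.8% to 41.3% in controls and from 13.9% to 18.3% in CRISPants.

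Of the other phosphatases of the nucleus, dusp1.L and dusp4.L rose by small amounts. dusp1 encodes a phosphatase that in mammals is induced within minutes of stimulation and acts on p38, JNK and ERK. dusp1.L was at 11.5, 11.9, 13.3 and 12.9 CPM in control pools 1, 2, 4 and 5, and at 15.3, 13.0, 14.9 and 16.6 CPM in CRISPant pools 3, 4, 7 and 9. CRISPant pool 4 lay within the range of the controls and the other CRISPant pools lay above it. dusp1.L rose 1.20-fold (log2 fold change 0.27, SE 0.09, edgeR adjusted p = 0.025). This call was lost without control pools 1 or 2 or CRISPant pools 3 or 9 (edgeR adjusted p between 0.0578 and 0.0956). dusp1.S had a log2 fold change of 0.16 and did not pass (95% interval -0.05 to 0.36, edgeR adjusted p = 0.22).

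dusp4 encodes another phosphatase of the nucleus, close in sequence to that of dusp1. dusp4.L was at 10.5, 11.1, 9.40 and 12.2 CPM in control pools and at 12.8, 13.5, 13.7 and 13.7 CPM in CRISPant pools, so that every CRISPant pool was above every control pool. It rose 1.25-fold (log2 fold change 0.32, SE 0.09, edgeR adjusted p = 0.010), and passed with any pool left out (edgeR adjusted p between 0.00542 and 0.0430). dusp4.S, whose gene model in the RefSeq annotation spans 1386 bp against 15323 bp for dusp4.L, had a log2 fold change of 0.17 and did not pass (95% interval -0.08 to 0.41, edgeR adjusted p = 0.28). With homeologues summed, dusp1 and dusp4 rose, by 0.22 and 0.25 on the log2 scale (edgeR adjusted p = 0.021 and 0.016). The dusp1 sum did not pass without control pool 5, CRISPant pool 3 or CRISPant pool 9 (adjusted p from 0.0518 to 0.0615), nor did the dusp4 sum without control pool 1 or CRISPant pool 4 (0.0629 and 0.0559 from edgeR).

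Of the phosphatases of the cytoplasm, dusp6, a widely used readout of FGF and ERK signalling in vertebrate embryos, did not pass the test in either copy. dusp6.L was at 15.5, 16.9, 16.0 and 16.4 CPM in control pools and 16.2, 18.0, 17.2 and 16.8 CPM in CRISPant pools, and the groups overlapped. Its log2 fold change was 0.08, with a 95% interval from -0.08 to 0.24 (edgeR adjusted p = 0.45). That of dusp6.S was 0.04, with an interval from -0.21 to 0.30 (edgeR adjusted p = 0.81). Neither interval reaches the falls of dusp5.

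dusp7, which encodes the closest relative of the Dusp6 protein, was measured with few reads, from 18 to 59 counts per pool for dusp7.L and from 17 to 30 for dusp7.S. dusp7.L was at 2.29, 1.95, 1.39 and 1.93 CPM in control pools and 0.952, 1.34, 1.21 and 1.30 CPM in CRISPant pools. The groups did not overlap, although control pool 4 was only just above CRISPant pool 4. dusp7.L fell by 36.2% (log2 fold change -0.65, SE 0.23, edgeR adjusted p = 0.025), and the call was lost without control pools 1 or 2 or CRISPant pool 3 (edgeR adjusted p between 0.0508 and 0.0929). dusp7.S was at 1.22 ± 0.0474 CPM in control and 0.847 ± 0.0669 CPM in CRISPant brains (SD, n = 4) with no overlap, and did not pass (log2 fold change -0.53, edgeR adjusted p = 0.082). Summed, dusp7 was at 3.11 CPM in control and 2.05 CPM in CRISPant brains and fell (log2 fold change -0.60, edgeR adjusted p = 0.0075).

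**Figure D2:**
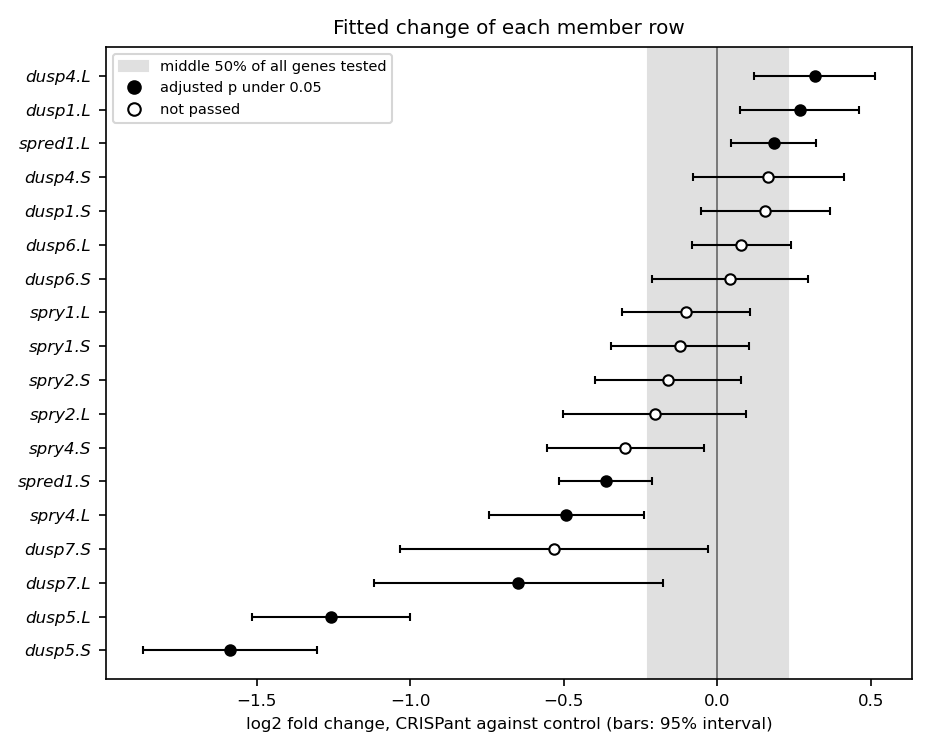
Fitted log2 fold change of each member row, with 95% intervals. Filled points passed the test and the grey band holds the middle 50% of all genes tested (-0.23 to 0.23). dusp5.S at -1.59 and dusp5.L at -1.26 lie apart from the other rows, which run from -0.65 to 0.32.

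Among the Sprouty genes, only spry4.L passed the test. It was at 16.0, 19.5, 22.0 and 24.3 CPM in control pools 1, 2, 4 and 5, and at 15.7, 16.4, 12.8 and 13.1 CPM in CRISPant pools 3, 4, 7 and 9. The groups overlapped because control pool 1 lay below CRISPant pool 4. spry4.L fell by 28.9% (log2 fold change -0.49, SE 0.12, edgeR adjusted p = 0.0033), and passed with any pool left out. spry4.S had a log2 fold change of -0.30 and was just outside the threshold (edgeR adjusted p = 0.054), and it passed without control pool 1 or CRISPant pool 7 (adjusted p = 0.041 and 0.033) and with genes filtered at a CPM of at least 1 in 4 pools (0.049). Summed, spry4 fell with a log2 fold change of -0.44 (edgeR adjusted p = 0.0010).

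spry1 and spry2, the other Sprouty members, overlapped between the groups in both copies and did not pass. spry1.L ranged from 11.0 to 12.4 CPM in control pools and from 9.91 to 12.8 CPM in CRISPant pools, with a log2 fold change of -0.10. spry1.S ranged from 12.8 to 16.2 and from 11.2 to 15.0 CPM, with -0.12. spry2.L had -0.20 and spry2.S -0.16 (edgeR adjusted p = 0.26 and 0.28). All 4 intervals included 0, and the lowest bound among them was -0.50, for spry2.L. Summed spry2 had a log2 fold change of -0.18 (edgeR adjusted p = 0.14), which passed without CRISPant pool 9 (-0.26, adjusted p = 0.047).

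The homeologues of spred1, whose product restrains Ras together with neurofibromin, changed in opposite directions. spred1.S, on chromosome 8S from 2049195 to 2095431, was at 37.1, 41.9, 37.4 and 35.3 CPM in control pools and 30.7, 31.1, 29.8 and 26.2 CPM in CRISPant pools, with no overlap. It fell by 22.3% (log2 fold change -0.36, SE 0.07, edgeR adjusted p = 3.9e-04), with any pool left out as well. spred1.L, on chromosome 8L from 103110490 to 103165472, was at 50.7, 57.4, 47.7 and 47.7 CPM in control pools and 59.7, 60.9, 56.0 and 54.3 CPM in CRISPant pools. Control pool 2 lay within the range of the CRISPants. spred1.L rose 1.13-fold (log2 fold change 0.18, SE 0.07, edgeR adjusted p = 0.030), a call lost without control pools 1, 4 or 5 or CRISPant pools 3 or 4 (edgeR adjusted p between 0.0614 and 0.102).

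The ratio of L to S CPM was then compared between the groups for each pair, which is free of anything that scales both copies alike. For spred1 the log2 ratio was 0.45, 0.45, 0.35 and 0.43 in control pools and 0.96, 0.97, 0.91 and 1.05 in CRISPant pools. Every CRISPant pool was above every control pool, and the difference was 0.55 (SE 0.07, 95% interval 0.41 to 0.69, adjusted p = 4.8e-06 from limma over 7427 pairs). It stayed between 0.52 and 0.57 with any pool left out. The ratio differed in 29.5% of all pairs, and both copies passed in opposite directions in 2.52% of them. With the copies summed, spred1 was at 88.8 ± 7.36 CPM in control and 87.1 ± 5.26 CPM in CRISPant brains (SD, n = 4), a log2 fold change of -0.03 with a 95% interval from -0.16 to 0.10.

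For dusp5 the log2 ratio was 1.33, 1.19, 1.11 and 1.61 in control pools and 1.46, 1.71, 1.42 and 1.92 in CRISPant pools, and the groups overlapped through control pool 5. The difference of 0.32 did not pass (95% interval 0.02 to 0.62, adjusted p = 0.10 from limma), but did so without control pool 5 (0.42, adjusted p = 0.048 from limma). In the other 7 pairs the ratio did not pass either, with differences from -0.18 for spry4 to 0.16 for dusp4. dusp5 was the only member whose copies both passed as lower, as did 11.0% of all pairs. For no member did both copies pass as higher, as they did in 885 of all 7427 pairs. Both copies of dusp7, spry1, spry2 and spry4 also had negative log2 fold changes, but only dusp7.L and spry4.L passed. Both copies of dusp1, dusp4 and dusp6 had positive ones, but only dusp1.L and dusp4.L passed. How reads that match both copies of a gene were counted is not given in the sources used here, so a part of each ratio could come from reads assigned to the other copy. Summed over homeologues, 2 of 9 members rose, 3 fell and 4 did not pass, while 43.6% of all summed genes passed.

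**Figure D3:**
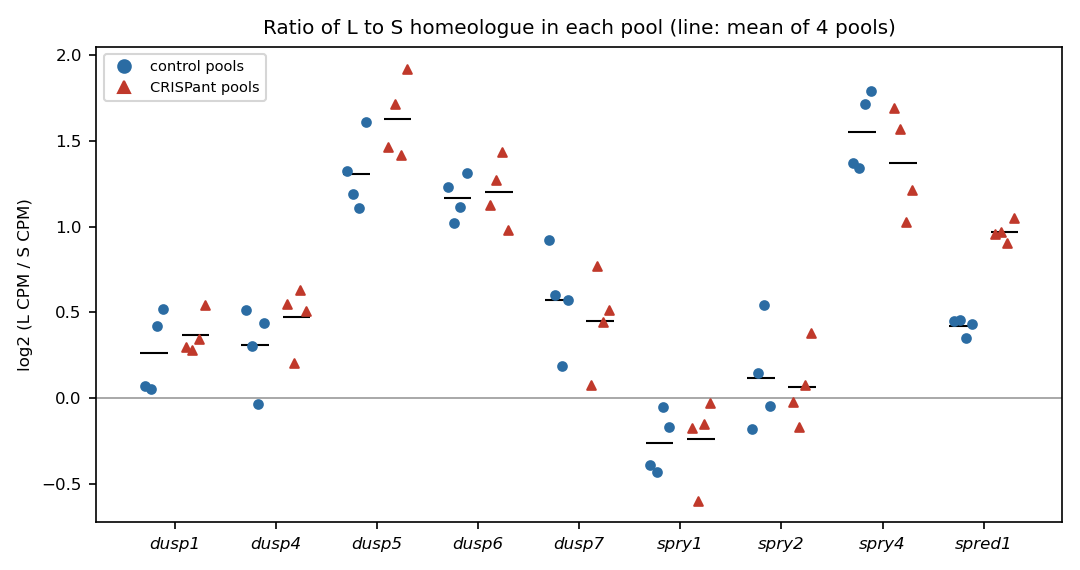
Log2 ratio of L to S CPM in each pool for the 9 pairs, with lines at the mean of 4 pools. The spred1 ratio is 0.35 to 0.45 in control pools and 0.91 to 1.05 in CRISPant pools, and the groups overlap in the other 8 pairs. Over all pairs the ratio differed in 29.5% by the limma test, and pairs without overlap were not counted. Ratios are not corrected for transcript length.

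Among genes with a name, whose symbol does not start with LOC or Xelaev, the profiles most like that of dusp5.S over the 8 pools were bicral.S, jarid2.S and dot1l.S. The measure was the root mean square difference of log2 CPM, each gene centred on its own mean, and was 0.16, 0.16 and 0.18. bicral.S went from 40.6 to 12.7 CPM, jarid2.S from 889.9 to 309 CPM and dot1l.S from 536 to 191 CPM. Both jarid2 and dot1l encode chromatin regulators, a partner of Polycomb repressive complex 2 and a histone H3K79 methyltransferase. The likeness was mostly the step between the groups, with log2 fold changes of -1.68, -1.53 and -1.49.

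Other MAPK phosphatases and regulators of receptor signalling were listed apart from the members. Of their 32 tested rows, 7 fell, with both flrt3 rows among them, and 1 rose (median log2 fold change -0.07). Without control pool 5 or CRISPant pools 3 or 7, 2 rose. Across all genes tested, 20.8% fell and 21.7% rose. dusp8, which in mammals acts on JNK and p38 and is abundant in brain, fell in both copies. dusp8.L went from 81.0 ± 5.59 to 52.2 ± 3.35 CPM (SD, n = 4), a log2 fold change of -0.63 (SE 0.06, edgeR adjusted p = 9.7e-08), and dusp8.S had -0.67. flrt3.L and flrt3.S, for a membrane protein that binds FGF receptors, fell with -0.46 and -0.68. Among the remaining phosphatases, dusp9.L fell with -0.58, while dusp9.S, dusp10.L, dusp16.L and dusp16.S did not pass (-0.07, -0.33, 0.07 and 0.01). dusp10.L passed with the CPM filter and without control pool 2 or CRISPant pool 4 (edgeR adjusted p = 0.047, 0.046 and 0.039). The rows spry3.L, spry3.S, spred2.L, spred2.S, spred3.L and spred3.S did not pass, with log2 fold changes from -0.19 to 0.23. With 1 pool left out, spred2.S passed without CRISPant pool 3, and spred2.L and spred3.S without control pool 5 (edgeR adjusted p = 0.034, 0.048 and 0.034).

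Upstream of the feedback genes, of 26 rows for Ras, Raf, MEK and ERK and their scaffolds, 10 fell and 1 rose (median -0.06), and 6 fell without control pool 2. For comparison, 20.8% of all genes tested fell and 21.7% rose. Both copies of the kinase genes araf and braf fell. araf.S went from 45.7 to 32.9 CPM (log2 fold change -0.47, edgeR adjusted p = 3.9e-06) and araf.L had -0.29, while braf.L went from 28.8 to 22.1 CPM (log2 fold change -0.38, edgeR adjusted p = 7.3e-04) and braf.S had -0.33. Among 35 rows for receptor adaptors and activators of Ras, 9 rose and 4 fell (median 0.04), with the FGF receptor adaptor frs3.L at -0.73, the exchange factor rasgrf1.L at -0.29, and the adaptors shc4.S and gab1.S at 0.89 and 0.36. Of 11 rows for proteins that switch Ras off, 4 fell and 3 rose (median -0.08), among them rasa4.S, which fell with -1.01, and rasal1.S, rasa3.S and dab2ip.L, which rose with 0.65, 0.56 and 0.28. In that list 2 rows fell without control pool 5 and 1 without CRISPant pool 9. Among the other copies of these genes, rasal1.L was at 77.0 CPM in control and 77.1 CPM in CRISPant brains and did not pass. Also not passing were rasa3.L, rasgrf1.S and gab1.L (0.28, -0.09 and 0.13). By contrast, rasa4.L and frs3.S fell with -0.28 and -0.19 (edgeR adjusted p = 0.027 and 0.043), with overlap between the groups. The copy shc4.L rose with 0.42.

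Several receptor and ligand genes also fell. Among 42 rows for receptor tyrosine kinases, 13 fell and 2 rose (median -0.13). In all genes tested, 20.8% fell and 21.7% rose. The hepatocyte growth factor receptor met.L (log2 fold change -0.66), fgfr4.L (-0.53) and fgfr2.L (-0.39) fell, and the neurotrophin receptor ntrk2.L rose with 0.36. At a low level, egfr.S rose from 0.73 to 1.72 CPM (log2 fold change 1.21, edgeR adjusted p = 8.3e-04). No other receptor row that passed changed by more than 2-fold. Of the other copies of these genes, fgfr2.S fell with -0.32, and met.S, fgfr4.S, ntrk2.S and egfr.L did not pass (-0.24, -0.08, -0.10 and 0.32). Of 39 rows for genes of the FGF, EGF, PDGF, VEGF and neurotrophin families, 12 fell and 2 rose (median -0.22). Not every gene of these families encodes a secreted ligand, fgf12.L and fgf13.S among the falls being examples. The VEGF family gene vegfa.L also fell. In this list 1 row rose without control pools 2 or 5 or CRISPant pools 3 or 9. The nerve growth factor gene ngf.S went from 4.04 ± 1.33 to 1.76 ± 0.334 CPM (SD, n = 4), a log2 fold change of -1.19 (edgeR adjusted p = 2.5e-04). hbegf.S and nrg3.L, for ligands of the EGF receptor family, fell with -0.97 and -0.34, and fgf22.L rose with 0.46. The copies ngf.L, hbegf.L and nrg3.S did not pass (-0.0048, -0.22 and -0.04).

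Downstream of ERK, the kinase gene rps6ka3 rose in both copies, with log2 fold changes of 0.67 for rps6ka3.L and 0.70 for rps6ka3.S, and rps6ka6.S with 0.31, while rps6ka4.L fell with -0.44. In that list 3 of 10 rows rose and 1 fell (median 0.11). The shares over all genes tested were 21.7% higher and 20.8% lower. Immediate early genes, which ERK, calcium and cAMP signals induce within minutes, fell in 35 of 68 rows and rose in 4, with a median of -0.34, and 10 fell by more than 2-fold. A fall of more than 2-fold was seen in 1.58% of all genes tested. The list of immediate early genes was drawn up with results for several of its genes known. fos.S fell from 22.5 ± 2.47 to 9.84 ± 1.38 CPM and the nuclear receptor gene nr4a1.S from 19.0 ± 2.34 to 7.80 ± 0.359 CPM (SD, n = 4), with log2 fold changes of -1.19 and -1.28, and the transcriptional repressor genes klf10.S and klf10.L rose with 1.01 and 0.65. dusp1, itself an immediate early gene in mammals, rose in its L copy in the same pools.

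The pools of a group differed in these genes. The median over the 68 immediate early rows, as a log2 difference from the mean of the control pools, was -0.11, 0.05, -0.05 and 0.06 in control pools 1, 2, 4 and 5, and -0.30, -0.33, -0.30 and -0.42 in CRISPant pools 3, 4, 7 and 9. Control pool 1 was the lowest control here, as it was for dusp5.L, dusp5.S and spry4.L among others. It was the highest control for dusp7.L, spry1.S and spry2.S. Over the 18 member rows the same median was -0.07, 0.07, -0.02 and 0.02 in control pools, and -0.19, -0.20, -0.15 and -0.10 in CRISPant pools. These 4 pools per group are too few for a correlation between pools.

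**Figure D4:**
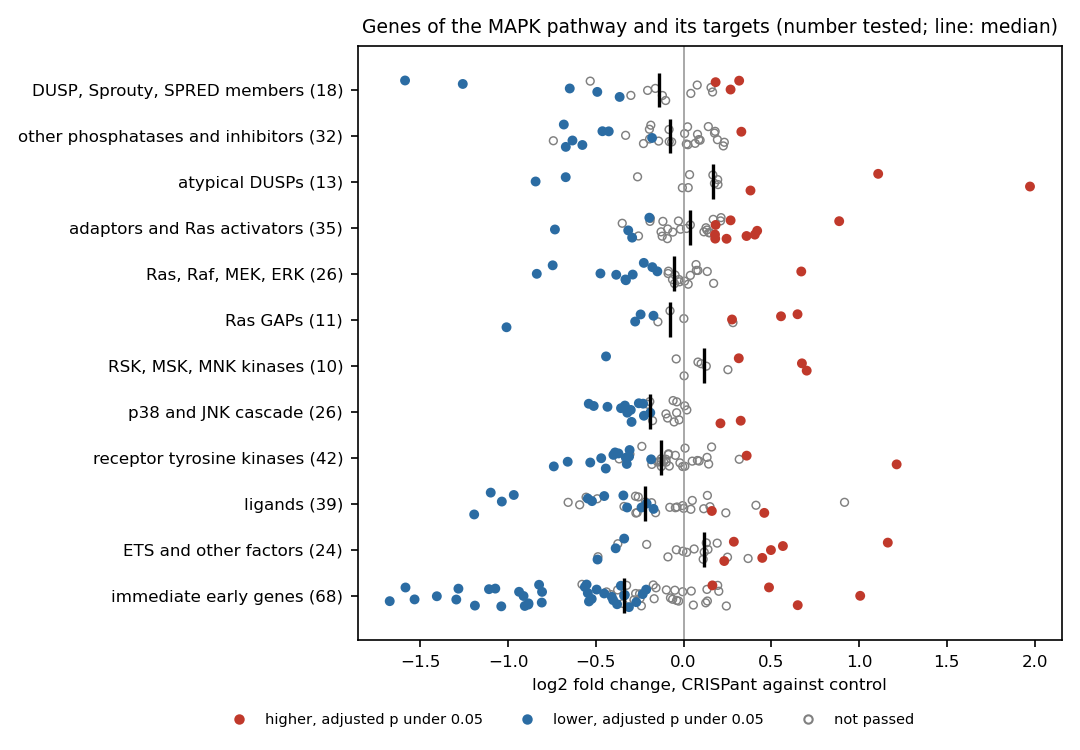
Log2 fold change of every tested row in the member list and 11 lists of pathway genes, with filled points for rows that passed the test, open points for rows that did not, and a line at each median. The immediate early genes have the lowest median, -0.34, and the members have a median of -0.14.

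Markers of other cells were measured beside these genes. Over all genes tested, 21.7% rose and 20.8% fell. Neuron markers had a summed level of 6344 to 6792 CPM in control and 6287 to 7042 CPM in CRISPant pools, with 1 of 23 rows higher and 9 lower. All 16 tested rows of proliferation markers rose, with a median log2 fold change of 1.07. The proliferation markers summed to 456 to 558 CPM in control and 1012 to 1282 CPM in CRISPant pools. Endothelial markers, 2 of 18 higher and 3 lower, summed to 153 to 173 and 135 to 165 CPM, and microglia and leukocyte markers, none of 10 higher and 4 lower, to 14.8 to 20.3 and 10.4 to 15.1 CPM. The microglia and leukocyte rows had a median log2 fold change of -0.43. Of them 3 fell by more than 2-fold, as did 1.58% of all genes tested. Astroglia and radial glia markers (4 of 14 higher, 7 lower) summed to 3196 to 3558 and 3393 to 3688 CPM, and myelinating glia markers (3 of 18 higher, 4 lower) to 244 to 293 and 245 to 272 CPM. Markers of meninges and fibroblasts (9 of 19 higher, 3 lower) summed to 152 to 175 and 210 to 243 CPM, of red blood cells (2 of 13 higher, none lower) to 935 to 1443 and 717 to 1972 CPM, and of skeletal muscle (2 of 7 higher, 1 lower) to 6.77 to 8.73 and 7.04 to 12.3 CPM. With 1 pool left out, the higher rows ranged from 0 to 2 for red blood cells (0 without control pools 1, 2 or 5 or CRISPant pools 7 or 9), from 0 to 3 for endothelium (0 without control pool 1 or CRISPant pool 7) and from 1 to 3 for muscle (1 without CRISPant pools 4 or 9). The lower rows ranged from 2 to 6 for myelinating glia (2 without control pool 5 or CRISPant pool 3), from 1 to 3 for meninges (1 without control pool 5 or CRISPant pools 3 or 9) and from 0 to 2 for muscle (0 without control pool 4 or CRISPant pool 4). No row of these 9 lists was at 0 in all pools. Some listed symbols had no row, among them csf1r, aif1 and mpeg1 for microglia, and gfap and s100b for astroglia. The part of any of these cells in the fall of dusp5 or in the changes of the other members was not tested.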

How the data were processed

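Whole brain RNA of 8 pools was analysed. Single reads of stranded mRNA libraries were aligned by the authors with DRAGEN (build XENLA_10.1) and counted by FeatureCounts, and the deposited table holds raw counts per gene with no normalisation. Strand and multi-mapping settings are not given in the sources used here. Each column was mapped to a pool by its library name. Replicate pairs differed by more than sampling noise (chi-square per degree of freedom 3.71 to 8.40).

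Genes were filtered with filterByExpr (minimum count 10), scaled by TMM and tested in edgeR 4.0.16 (R 4.3.3) by its robust quasi-likelihood F-test, with condition as the only term and p adjusted over all genes tested. Standard errors come from the fold change and F. L to S ratios used limma 3.58.1 on log2 CPM (prior count 2). Coordinates are from RefSeq annotation of v10.1, matched by symbol for all 18 rows. No sequences were used.

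The members and gene lists were chosen with earlier results of these data known. All members are named, with up to 4 passing genes of each pathway list by smallest p. Also named are the 3 profiles nearest to the member with the smallest p, among symbols not starting LOC or Xelaev. Rows of dusp9, dusp10, dusp16, spry3, spred2 and spred3 were named after their values were seen. Alternatives were median-of-ratios size factors, other filters, DESeq2 1.42.0, edgeR without robust estimation, summed homeologues, a prior count of 0.5, and each pool left out. The tests were tested on simulated data, over several random draws. Nearly all changes of 2-fold were recovered, with no wrong sign. Recovery of smaller changes was scored too but is not given here. Of the 8 member rows that passed in the data, 5 changed by under 1.5-fold. Somewhat more of the simulated calls were false than the nominal 0.05, so calls just inside the threshold are less secure than their adjusted p. Few genes were changed in each draw, none at a level as low as dusp7, whereas 42.4% of genes passed in the data. The simulated false share therefore need not hold for these data. The rows araf.L, braf.S, mapk10.L, mapk10.S and mapk11.L were also named after their values were seen. Further passing rows outside the rule of up to 4 were fgf12.L, fgf13.S, vegfa.L, fgfr2.S, egfr.S, mapk8ip3.S, rasa4.L, frs3.S, shc4.L, creb1.L and atf1.L. Other copies of named genes, and p38 and JNK rows, that did not pass were also given. Fold changes of the rows in these last 3 sentences were not followed singly with a pool left out. A withheld item is not reported here.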

Additional observations from a re-analysis of the deposited data

Results flagged for a closer look

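Among 73 of the named genes, checked in each group of 4 pools, 1 value stood far from the others of its group: braf.L was at 20.1 CPM in CRISPant pool 9, against 22.6 to 22.9 CPM in the other CRISPant pools. No member row was marked in this way. Chance marks about 1 in 20 groups, and 146 groups were checked.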

How the results depend on the processing

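No paired analysis was possible because the groups share only the number 4 in the labels. Among all genes, the counts of higher and lower genes stayed within 1.5 times of 5454 and 5223 in every alternative, from 4818 to 5569 and from 4603 to 5281. Over the members, 1 to 3 rows were higher and 4 to 6 lower with a pool left out. With homeologues summed, 3 members were lower, which has fewer rows to count. Pathway lists together had 30 to 37 genes higher and 84 to 107 lower, and counts in short lists moved more, as given beside them. The gained calls of dusp10.L, spred2.L, spred2.S and spred3.S are given there too. Without a filter, 1 red blood cell row and 4 muscle rows were higher and 2 muscle rows lower, with the CPM filter no muscle row was higher, and DESeq2 called 1 meninges row lower. DESeq2 and the unfiltered fit each called 1 row higher in the list of FGF, EGF, PDGF, VEGF and neurotrophin families. Over the alternatives that kept all pools, 0 to 1 proliferation rows were lower and 16 were higher. Left out in turn, the pools moved the log2 fold change of dusp7.L from -0.77 to -0.54, dusp1.L from 0.21 to 0.33, spred1.L from 0.15 to 0.24, spry4.S from -0.36 to -0.24 and dusp6.S from -0.030 to 0.12. spry4.S was at -0.30 with the CPM filter, past the threshold. For sums, the ranges were 0.19 to 0.27 for dusp1, 0.20 to 0.29 for dusp4, -0.26 to -0.13 for spry2 and -0.057 to 0.030 for spred1. For L to S ratios they were 0.22 to 0.42 for dusp5, -0.043 to 0.11 for dusp6, -0.25 to 0.0070 for dusp7, -0.048 to 0.14 for spry1 and -0.15 to 0.094 for spry2. Ranges for spry3.S (-0.038 to 0.16), dusp9.S (-0.15 to 0.018) and dusp16.S (-0.066 to 0.068) also crossed 0, and none of the values that changed sign passed the test. dusp5.L, dusp5.S, spred1.S, spry4.L and dusp4.L passed in every alternative run for single rows. The cause of these shifts was not tested. With 17 to 59 counts per pool, dusp7 was the member most limited by depth.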

Other observations

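Phosphatases of the atypical DUSP group, which lack the docking domain for MAP kinases, were counted apart. Of 13 tested rows, 3 rose and 2 fell (median log2 fold change 0.17). Here too the shares over all genes tested were 21.7% higher and 20.8% lower. dusp22.L, which in mammals acts on JNK signalling, fell from 21.3 ± 2.04 to 11.8 ± 1.53 CPM (SD, n = 4), a log2 fold change of -0.84 (edgeR adjusted p = 7.9e-07), and dusp22.S fell with -0.67. That second call was lost without control pools 1 or 2 or CRISPant pools 7 or 9 (adjusted p from 0.0517 to 0.107). dusp23.L rose from 1.80 to 3.90 CPM and dusp28.L from 0.345 to 1.36 CPM, with log2 fold changes of 1.11 and 1.97, and CRISPant pools were above control pools in both. Few reads lay behind dusp28.L, which was at 0.232 to 0.495 CPM in control pools. The 95% interval of its log2 fold change was wide, from 1.35 to 2.60.

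Of 26 rows for the stress-activated p38 and JNK cascade, which holds the MAP kinases themselves, the kinases above them and their scaffolds, 12 fell and 2 rose (median log2 fold change -0.19). Among the p38 and JNK kinases themselves, mapk10.L and mapk11.L fell with -0.33 and -0.30, mapk10.S rose with 0.33, and the rows of mapk8 and mapk12, mapk11.S and mapk14.S did not pass. The JNK kinase gene map2k7 fell in both copies, with -0.43 for map2k7.L and -0.54 for map2k7.S. So did the JNK scaffold genes mapk8ip1 and mapk8ip2, with -0.51 for mapk8ip1.S and -0.36 for mapk8ip2.L. Of a further scaffold gene, mapk8ip3.S fell with -0.30, and mapk8ip3.L did not pass (-0.10, edgeR adjusted p = 0.11). Of 24 rows for ETS factors, SRF and CREB-type factors, 6 rose and 3 fell (median 0.11). For both lists, the shares over all genes tested were 21.7% higher and 20.8% lower. The cAMP response factors creb1.S and atf1.S rose with 0.50 and 0.57, while srf.S and ets2.L fell with -0.39 and -0.49. Their other copies creb1.L and atf1.L rose with 0.45 and 0.23 (edgeR adjusted p = 0.041 and 0.0496), with overlap between the groups. The copies srf.L and ets2.S did not pass (0.06 and 0.11).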
